A study of Homo sapiens with 4 samples.

Results

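Histone genes able to make polyadenylated mRNA were followed in HEK293, an established cell line of human embryonic kidney origin. They are 7 of the 20457 features in the deposited tables: the H2B genes *HIST1H2BC*, *HIST1H2BD*, *HIST1H2BJ*, *HIST1H2BK* and *HIST2H2BE*, the H2A gene *HIST1H2AC* and the linker histone gene *HIST1H1C*. They were matched by symbol as replication-dependent histone genes known or suspected to give polyadenylated forms. They were chosen in part on their response, because H2B genes of this group were noted as having risen most in the comparison described here. Their differences between the groups are therefore given as values, without a test. Cells had received 10 nM siRNA for 72 h, either a negative control (siControl, 2 libraries) or siRNA against *CNOT4* (siCNOT4, 2 libraries), in otherwise unmodified HEK293 cells. The stated aim was to learn what CNOT4, a ubiquitin ligase linked to the CCR4-NOT deadenylase complex, contributes to how codon choice affects expression. The libraries were made from poly(A)-selected RNA and described by TPM, a level per transcript length that is scaled to the same sum, 1000000, in each library.

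Replication-dependent histone genes supply histones during DNA synthesis, and most of their mRNA is unusual in ending in a conserved stem-loop and not in a poly(A) tail. The stem-loop is bound by the stem-loop binding protein SLBP and cut by a complex that contains the U7 small nuclear RNA. Several of these genes also carry a poly(A) signal downstream, which is used in differentiated or non-dividing cells and in some tumour lines. Oligo(dT) selection captures the polyadenylated form and largely discards the stem-loop form, so the values below describe the former far more than the latter, and neither form was counted separately. H2A and H2B form the dimers on the flanks of the nucleosome, and H1 binds the linker DNA.

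The stem-loops are shown because they are the feature that sets these mRNAs apart. The pattern searched was the histone stem-loop pattern of 16 bases, on the transcript strand. It was found in GENCODE 29 transcripts of 4 of the 7 genes, against 0.266% of 19902 protein-coding genes and 44.4% of the 63 other replication-dependent histone genes listed. The models of *HIST1H2BK* and *HIST1H1C*, and one model of *HIST1H2BJ*, end at the stop codon, so these windows could not hold it. Capitals mark the stem-loop, and 5 bases are given on each side.

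HIST1H2BC (chr6:26123472-26123487, minus strand): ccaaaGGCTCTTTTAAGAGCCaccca
HIST1H2BD (chr6:26158587-26158602, plus strand): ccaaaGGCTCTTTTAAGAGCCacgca
HIST2H2BE (chr1:149886188-149886203, minus strand): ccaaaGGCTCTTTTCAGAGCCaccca
HIST1H2AC (chr6:26124669-26124684, plus strand): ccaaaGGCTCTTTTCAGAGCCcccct

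The coordinates are those of GRCh38, and all 4 lie in 3′ untranslated sequence. *HIST1H2BC* and *HIST1H2BD* shared one stem-loop sequence, and *HIST2H2BE* and *HIST1H2AC* another. It began 36 nt after the stop codon in *HIST1H2BC* and *HIST1H2BD*, 43 nt after it in *HIST1H2AC* and 56 nt after it in *HIST2H2BE*.

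The annotated ways past the stem-loop differed between the genes. *HIST1H2BC* (chromosome 6, 26114873 to 26123926), *HIST1H2BD* (chromosome 6, 26158146 to 26171349) and *HIST1H2AC* (chromosome 6, 26124145 to 26139116) each had 1 transcript whose splicing removes the stem-loop and joins the coding exon to a distant second exon. *HIST1H2BJ* (chromosome 6, 27125897 to 27132750) also had 2-exon transcripts, the longest with 569 nt after the stop codon. *HIST2H2BE* (chromosome 1, 149884459 to 149886652) had a single unspliced transcript of 2194 nt that runs through the stem-loop and has an AATAAA, the commonest poly(A) signal, 24 nt from its end. The GENCODE models of *HIST1H2BK* (chromosome 6, 27146418 to 27146798) and *HIST1H1C* (chromosome 6, 26055787 to 26056428) hold 1 exon each. RefSeq gives *HIST1H2BK* a span of 8566 nt, from 27138293 to 27146858, and *HIST1H1C* one of 731 nt. Each gene lies in a histone gene cluster, on chromosome 6 for 6 of the genes and on chromosome 1 for *HIST2H2BE*.

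**Figure D1:**
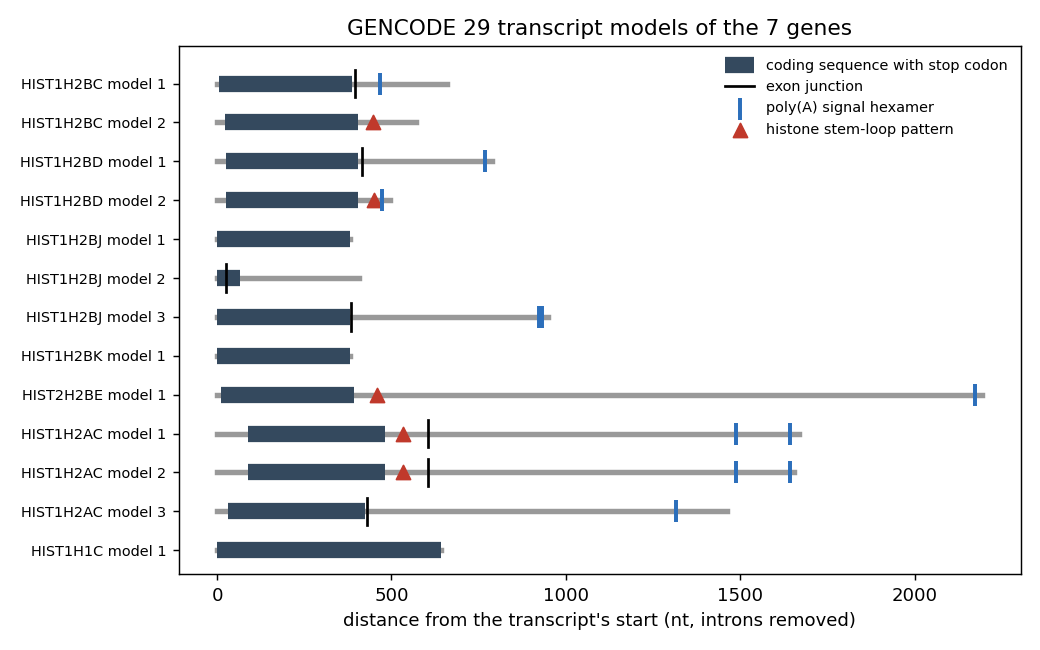
Each row is a GENCODE 29 transcript of one of the 7 genes, drawn from its start in nucleotides with introns removed. Thick bars are coding sequence, vertical black lines exon junctions, triangles the stem-loop pattern and blue ticks poly(A) signal hexamers. The longest model, of *HIST2H2BE*, has 2194 nt and carries both a stem-loop and a hexamer.

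Promoters are shown because these genes were higher together. All 7 genes matched a RefSeq promoter window of 300 bases around the start (GRCh38.p14). *HIST1H2BC* and *HIST1H2AC* are transcribed in opposite directions, in GENCODE from starts 219 nt apart. The windows use the RefSeq starts, 26123926 for *HIST1H2BC* and 26124172 for *HIST1H2AC*, and those of these genes share 255 bases. This stretch is given on the plus strand, with *HIST1H2AC* to its right. Capitals mark ATTTGCAT, the octamer typical of H2B promoters, and the TATA box TATAAA, each on either strand.

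HIST1H2AC and HIST1H2BC (chr6:26123922-26124176, plus strand): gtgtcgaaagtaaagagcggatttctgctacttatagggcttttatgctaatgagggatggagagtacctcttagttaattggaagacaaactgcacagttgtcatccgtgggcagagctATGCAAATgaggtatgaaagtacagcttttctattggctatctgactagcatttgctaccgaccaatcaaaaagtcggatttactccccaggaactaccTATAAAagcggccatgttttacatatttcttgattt

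The next windows run over 120 bases that end 20 bases after the start, on each gene's own strand.

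HIST1H2BD (chr6:26158021-26158140): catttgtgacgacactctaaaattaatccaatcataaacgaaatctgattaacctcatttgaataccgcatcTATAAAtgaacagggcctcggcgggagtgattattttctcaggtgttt
HIST1H2BJ (chr6:27132776-27132895): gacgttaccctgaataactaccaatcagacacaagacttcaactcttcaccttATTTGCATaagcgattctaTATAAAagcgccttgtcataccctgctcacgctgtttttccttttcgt
HIST1H2BK (chr6:27146839-27146958): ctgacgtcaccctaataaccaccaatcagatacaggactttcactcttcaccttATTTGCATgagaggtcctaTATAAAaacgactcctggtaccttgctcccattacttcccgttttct
HIST2H2BE (chr1:149886663-149886782): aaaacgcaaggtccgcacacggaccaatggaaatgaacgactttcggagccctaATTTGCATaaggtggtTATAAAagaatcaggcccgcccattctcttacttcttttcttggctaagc
HIST1H1C (chr6:26056451-26056570): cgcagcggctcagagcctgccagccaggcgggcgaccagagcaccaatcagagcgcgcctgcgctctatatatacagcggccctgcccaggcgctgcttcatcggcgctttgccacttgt

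Over the whole 300-base windows, ATTTGCAT on either strand was in 5 of the 7 genes and in 1.8% of 27305 RefSeq promoters of the same length. It began 46 or 47 bases before the start in *HIST1H2BJ*, *HIST1H2BK* and *HIST2H2BE*, and 123 bases before it in *HIST1H2BC*. The match of *HIST1H2AC*, 130 bases before its start, is this same site in the shared bases, so the site counts for both genes. The windows of *HIST1H2BD* and *HIST1H1C* did not hold these letters. TATAAA was in 6 of the 7 windows and in 12% of all promoters, and CCAAT, a site of the factor NF-Y, in all 7 and in 35.7%. The only TATAAA of *HIST1H2BC*, 220 bases before its start, is the site 31 bases before the start of *HIST1H2AC*. That site therefore counts for both genes, and their CCAAT matches also lie in the shared bases. AAACACA, a sequence typical of H1 promoters, was in the window of *HIST1H1C* and in 5.76% of all promoters. Motif matches may overlap in these counts, and a match is only a run of letters.

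In both siCNOT4 libraries all 7 genes were higher than in both siControl libraries. The same held for 66.4% of the 14208 features tested, those averaging 1 TPM or more over the libraries. Most features thus had higher TPM in siCNOT4, although TPM has the same sum in each library. The genes fell into a group with 5.42-fold to 9.45-fold higher mean TPM (*HIST1H2BC*, *HIST1H2BJ*, *HIST1H2BD*, *HIST1H2AC*) and a group with 1.99-fold to 2.42-fold higher mean TPM (*HIST1H2BK*, *HIST2H2BE*, *HIST1H1C*). In bulk RNA, fewer cells with a transcript and less of it per cell cannot be told apart. All values below are TPM by library unless a scale is named, log2 fold changes are on the log2(TPM + 1) scale, and errors with ± are SD of 2 libraries. The difference between replicates of one group was at most 0.37 on this scale in any of the 7 genes, while the smallest log2 fold change was 0.96.

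*HIST1H2BC*, which encodes a core histone H2B, was at 2.29 and 1.55 TPM in siControl and at 17.0 and 19.3 TPM in siCNOT4. The siCNOT4 libraries were far above both controls, and the groups did not overlap. The means were 1.92 ± 0.522 and 18.2 ± 1.60 TPM, a ratio of 9.45, with single library pairs from 7.43 to 12.4. The log2 fold change was 2.72 (SE 0.28), which ranked 6 among the 14208 features tested.

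*HIST1H2BJ*, another H2B gene, was at 4.49 and 4.52 TPM in siControl and at 30.8 and 34.6 TPM in siCNOT4. Its control libraries were nearly equal, and both siCNOT4 libraries were at least 6.82 times as high as either. The log2 fold change was 2.61 (SE 0.26). *HIST1H2BD*, an H2B gene with an annotated spliced form, was at 6.09 and 4.82 TPM in siControl and at 31.6 and 35.6 TPM in siCNOT4. Its means differed 6.16-fold, and the log2 fold change was 2.43 (SE 0.27).

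*HIST1H2BK* was by far the most abundant of the H2B genes, at 154 and 151 TPM in siControl and 337 and 400.0 TPM in siCNOT4. The groups were apart, with the siCNOT4 replicates less alike than the controls. The ratio of means was 2.42 (library pairs from 2.19 to 2.66) and the log2 fold change 1.27 (SE 0.15). *HIST2H2BE*, the H2B gene of the chromosome 1 cluster, was at 3.44 and 2.84 TPM in siControl and at 6.45 and 7.71 TPM in siCNOT4. This 2.25-fold ratio was the smallest among the H2B genes of the 7, with a log2 fold change of 0.96 (SE 0.26).

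*HIST1H2AC*, which encodes a core histone H2A and shares its promoter region with *HIST1H2BC*, was at 4.10 and 3.36 TPM in siControl and at 21.4 and 19.1 TPM in siCNOT4. The ratio of means was 5.42 and the log2 fold change 2.17 (SE 0.27). *HIST1H1C*, which encodes linker histone H1.2, was at 67.7 and 84.1 TPM in siControl and at 143 and 159 TPM in siCNOT4. Its ratio of 1.99 was the lowest of the 7, and its log2 fold change was 0.99 (SE 0.18). Unlike the others of the 7, except *HIST1H2BJ*, it was higher in siControl replicate 2 than in replicate 1.

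**Figure D2:**
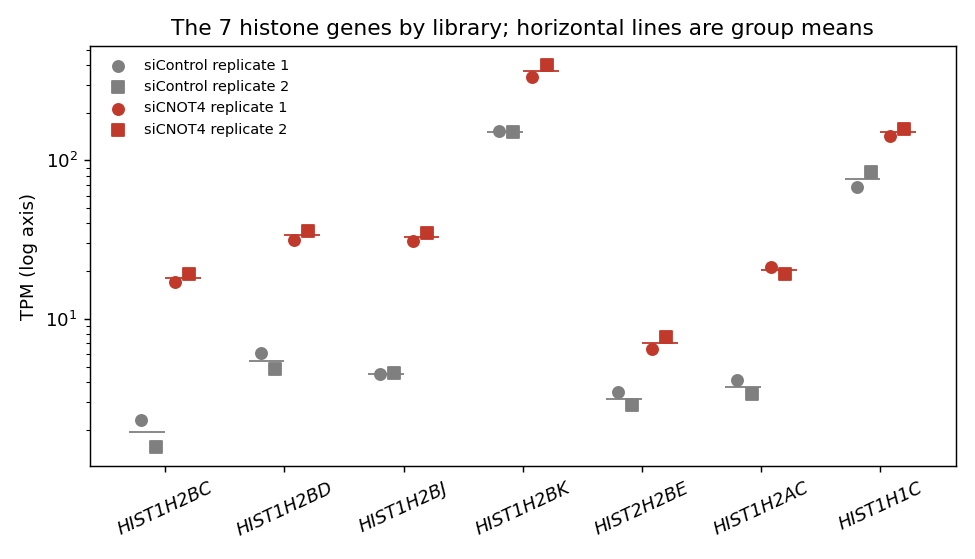
TPM of the 7 genes in each library on a log axis, with grey points for siControl, red points for siCNOT4, circles for replicate 1, squares for replicate 2 and horizontal lines for group means. The red points lie above the grey ones in every gene, by 9.45-fold in *HIST1H2BC* and 1.99-fold in *HIST1H1C* as ratios of means.

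The values stood against a general shift between the groups. The median log2 fold change of all features was 0.50, and that of the 7 genes 2.17, or 1.67 above it. Relative to the median of all features, *HIST1H2BC* was higher by 2.22, *HIST1H2BJ* by 2.11, *HIST1H2BD* by 1.93, *HIST1H2AC* by 1.67, *HIST1H2BK* by 0.77, *HIST1H1C* by 0.49 and *HIST2H2BE* by 0.46. After trimmed-mean (TMM) scaling of the libraries the median of all features was 0.03 and that of the 7 genes 1.71. Quantile normalization gave 0.02 and 1.56. *HIST2H2BE*, with the smallest change among the H2B genes of the 7, was at 0.53 after TMM scaling and 0.32 after quantile normalization. The size of the general shift depended on the control library. As deposited, the median of all features was 0.29 if siControl replicate 1 served as the only control. It was 0.71 if replicate 2 did. The median of the 7 genes lay 1.76 and 1.57 above these values. The TMM factors were 0.967 and 0.717 in siControl, against 1.18 and 1.22 in siCNOT4.

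**Figure D3:**
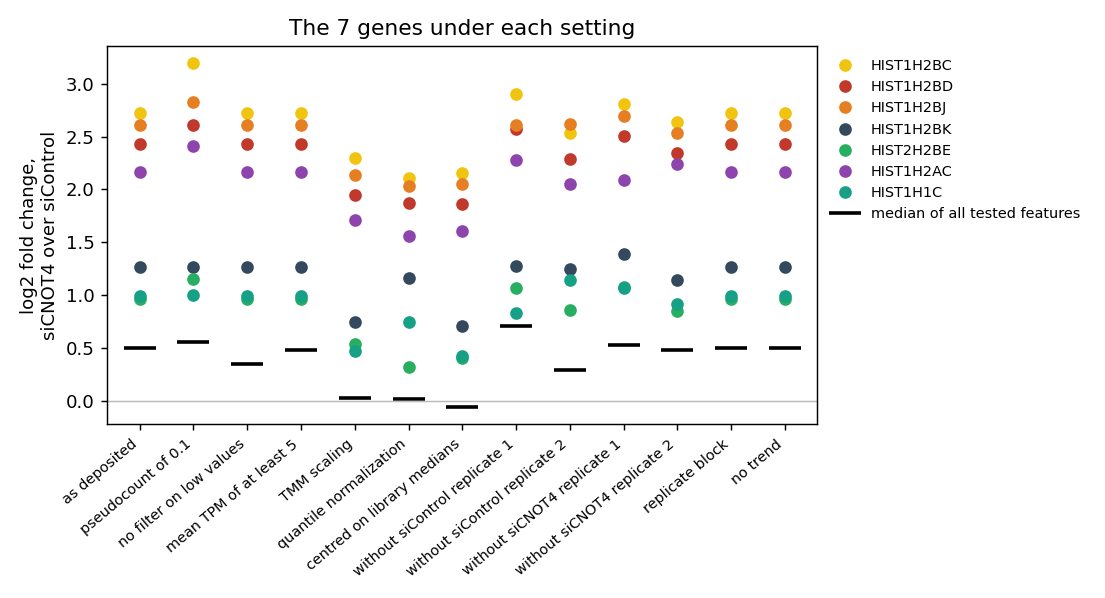
Log2 fold change of each of the 7 genes (coloured points) and the median of all tested features (black bars) for the deposited TPM and 12 other settings. Every point lies above 0 and above the black bar of its setting, and the gap between the 4 upper and 3 lower genes is present in each setting.

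The 4 genes with a 2-exon GENCODE transcript were those with the larger ratios, 5.42 to 9.45, and the 3 with only single-exon models had ratios of 1.99 to 2.42. This grouping was made after the values were seen, and it depends on the annotation: RefSeq gives *HIST1H2BJ* and *HIST1H2AC* spans of only 480 and 519 nt and *HIST1H2BK* one of 8566 nt. Among the other replication-dependent histone genes, 3 tested genes had a spliced GENCODE transcript (*HIST1H2BN*, *HIST1H3E* and *HIST1H4H*, ratios 2.86 to 5.93). The 19 without one had ratios from 0.465 to 17.4 with a median of 2.33. Their ranges overlapped, and *HIST1H2BB*, which reached 17.4, was listed at 0 in siControl replicate 1.

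Shares within a library do not depend on how libraries are scaled. The 5 H2B genes of the group made up 90.9% and 94.5% of the TPM summed over 17 H2B genes in siControl, and 91.8% and 91.5% in siCNOT4. On this denominator the groups overlapped. Of the TPM of all replication-dependent histone genes, the same 5 genes held 53.2% and 52.3% in siControl and 56.3% and 57.3% in siCNOT4, where the groups did not overlap. Within summed H2B TPM, *HIST1H2BK* held 82.2% and 86.6% in siControl and 73.2% and 73.6% in siCNOT4, lower in both. *HIST1H2BC*, *HIST1H2BD* and *HIST1H2BJ* together held 6.89% and 6.27% in siControl and 17.3% and 16.5% in siCNOT4. *HIST2H2BE* went from 1.84% and 1.64% to 1.40% and 1.42%. Summed H2B TPM came to 187 and 174 in siControl, against 460 and 544 in siCNOT4.

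**Figure D4:**
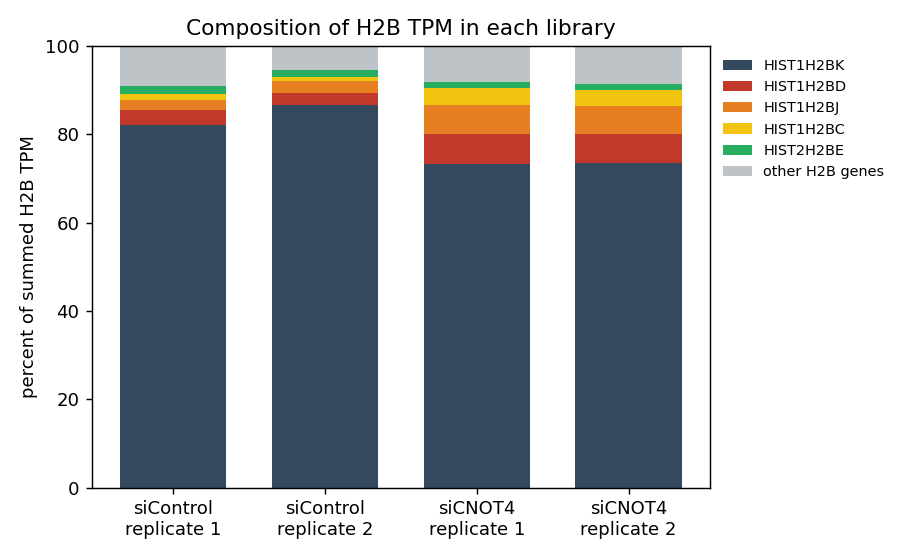
Stacked bars give the percent of summed H2B TPM from each gene in the 4 libraries. *HIST1H2BK* is the largest block in each bar, at 82.2% and 86.6% in siControl and 73.2% and 73.6% in siCNOT4, where the blocks of *HIST1H2BC*, *HIST1H2BD* and *HIST1H2BJ* are wider.

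*HIST1H2AC* held 9.42% and 9.36% of the TPM summed over 14 H2A genes in siControl, and 24.3% and 22.3% in siCNOT4. The 2 siControl values were nearly the same, and both siCNOT4 values were above them. *HIST1H1C* made up 97.3% and 98.3% of summed H1 TPM in siControl and 98.2% and 98.5% in siCNOT4, so in every library it supplied nearly all H1 mRNA of this kind that poly(A) selection captured. Together the 7 genes held 75.6% and 80.2% of the TPM of all 59 replication-dependent histone genes in siControl and 78.2% and 77.8% in siCNOT4. These shares rest on the gene lengths of the authors' annotation, which is not given in the sources used here.

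Pairs of genes kept or changed their proportions. *HIST1H2BC* over *HIST1H2AC*, the pair with a shared promoter region, gave 0.559 and 0.462 in siControl, against 0.796 and 1.01 in siCNOT4. *HIST1H2BJ* over *HIST1H2BD* gave 0.737 and 0.939 in siControl, against 0.975 and 0.972 in siCNOT4, so these 2 genes remained close to each other in level. *HIST2H2BE* over *HIST1H2BK* was 0.0224 and 0.0189 against 0.0192 and 0.0193, and these values overlapped between the groups. *HIST1H2BJ* over *HIST1H2BK*, genes with 92.1% identical coding bases, gave 0.0292 and 0.0300 in siControl, against 0.0915 and 0.0865 in siCNOT4.

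Other H2A genes face these H2B genes across a short promoter region, and their levels were a separate measurement. Distances are between GENCODE gene starts. The GENCODE models of *HIST1H2BJ* and *HIST1H2BK* begin at the coding sequence, so their starts are not mapped transcription starts. *HIST1H2AG*, opposite *HIST1H2BJ* with starts 292 nt apart, rose from 2.32 and 0.410 TPM to 7.16 and 11 TPM (log2 fold change 2.19, SE 0.45, limma adjusted p 0.0393), and was no longer called after TMM scaling. *HIST1H2AH*, opposite *HIST1H2BK* with starts 331 nt apart, was at 0.481 and 0.565 TPM in siControl and 0.674 and 0.171 TPM in siCNOT4, under the minimum for testing. *HIST2H2AC*, opposite *HIST2H2BE* with starts 323 nt apart, was at 1.77 and 4.67 TPM in siControl and 1.11 and 1.88 TPM in siCNOT4 (limma adjusted p 0.2). For *HIST1H2AH* and *HIST2H2AC* the siControl and siCNOT4 values overlapped. The difference between *HIST1H2AG* and the other partners was not tested.

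Near-identical copies limit how surely reads belong to one gene. The coding sequences of the 5 H2B genes, of 378 nt each, were 89.4% to 92.6% identical. Of the 50-base windows of the longest complete protein-coding GENCODE transcript, 74.1% occurred in another gene for *HIST1H2BK*, most often *H2BFS*, for which no value was used here. The share was 8.52% for *HIST1H2BC*, 8.11% for *HIST2H2BE*, 5.95% for *HIST1H2BD*, 4.77% for *HIST1H2BJ* and 0.436% for *HIST1H2AC*, and no window of *HIST1H1C* was shared. These transcripts differ in how much untranslated sequence they hold. Over coding windows alone the share was 73.9% for *HIST1H2BK*, 52.9% for *HIST2H2BE*, which shares most with *HIST2H2BF*, and 13.1% to 15.8% for the other 3 H2B genes. How the authors treated reads that match several genes is not given in the sources used here, and the values of *HIST1H2BK* and *HIST2H2BE* above all are uncertain for this reason. The same holds for the use of strand in counting.

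Codon composition, the subject of the study, was read from GC3, the percent of codons that end in G or C. GC3 was 81.7% in *HIST1H2BC*, 83.3% in *HIST1H2BD*, 81.7% in *HIST1H2BJ*, 89.7% in *HIST1H2BK* and 88.9% in *HIST2H2BE*. When 12262 tested genes with a coding sequence were put into 5 bins by GC3, all 5 H2B genes lay in bin 5, the highest, whose median log2 fold change was 0.28. *HIST1H2AC* (75.4%) lay in bin 4, with a median of 0.36, and *HIST1H1C* (63.4%) in bin 3, with a median of 0.47. Each of the 7 genes had a higher log2 fold change than the median of its bin. The genes of highest GC3 within the group, *HIST1H2BK* and *HIST2H2BE*, had smaller log2 fold changes than the other H2B genes of the group. *HIST1H1C*, of lowest GC3 in the group, also had a small one, 0.99. A relation of GC3 to the change within the group was not tested.

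The other replication-dependent histone genes are no independent comparison, since the 7 were picked in part because their H2B genes rose most. Not each of these did. *HIST1H2BK* (1.27) and *HIST2H2BE* (0.96) had smaller log2 fold changes than *HIST1H2AI* (2.38), *HIST1H4H* (2.16) and *HIST1H3E* (1.96) outside the group. Of 63 other genes listed, 52 were in the tables and 22 reached the minimum level for testing. Under limma with Benjamini-Hochberg adjustment over all features and a threshold of 0.05, 11 rose in siCNOT4 and 0 fell, while 11.3% of all features were called higher and 1.30% lower. At an unadjusted p under 0.05, 15 were higher and 0 lower. The share of all features at an unadjusted p is not given, so such counts, here and below, cannot be set against it. After TMM scaling 8 rose and 0 fell, against 4.86% of all features called higher and 4.51% lower. The minimum favoured higher calls: 7 of the 22, with 4 of the 11 calls, reached it in their siCNOT4 mean only, and 1 gene, not called, in its siControl mean only. With no minimum, 4 of 46 genes were called higher, against 847 of the 19734 features then tested.

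By class, 4 of 8 other H2B genes rose, 3 of 6 H2A, 2 of 3 H3, 2 of 4 H4 and 0 of 1 H1. The H2B genes *HIST1H2BB*, *HIST1H2BF* and *HIST1H2BH* and the H4 gene *HIST1H4I*, all called, reached the minimum in their siCNOT4 mean only. Among the nucleosome core genes, the H2A gene *HIST1H2AI* rose from 3.29 and 1.01 TPM to 15 and 13.6 TPM (log2 fold change 2.38, SE 0.40, limma adjusted p 0.0285). The H4 gene *HIST1H4H* rose from 2.89 and 1.45 TPM to 11.3 and 14.5 TPM (2.16, SE 0.33, limma adjusted p 0.0254). The H3 gene *HIST1H3E* rose from 2.67 and 2.5 TPM to 12.3 and 13.7 TPM (1.96, SE 0.26, limma adjusted p 0.0230). Of these, *HIST1H2AI* had a log2 fold change within the 2.17 to 2.72 of the upper 4 of the 7 genes, and the other two had smaller ones.

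Lower in level, the H2B gene *HIST1H2BH* rose from 0.363 and 0.160 TPM to 4.0 and 3.09 TPM, and *HIST1H2BG* from 1.21 and 1.07 TPM to 5.28 and 6.63 TPM. *HIST1H3H* rose from 8.32 and 7.19 TPM to 21.2 and 32.8 TPM, and *HIST1H4I* from 0.417 and 0.551 TPM to 2.63 and 4.88 TPM. Their limma adjusted p values ran from 0.0227 to 0.0336. *HIST1H2BH* and *HIST1H4I* reached the minimum in their siCNOT4 mean only, which favours a higher call. The only H1 gene tested besides *HIST1H1C* was *HIST1H1E*, at 1.38 and 1.30 TPM in siControl and 1.34 and 1.57 TPM in siCNOT4 (limma adjusted p 0.774).

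**Figure D5:**
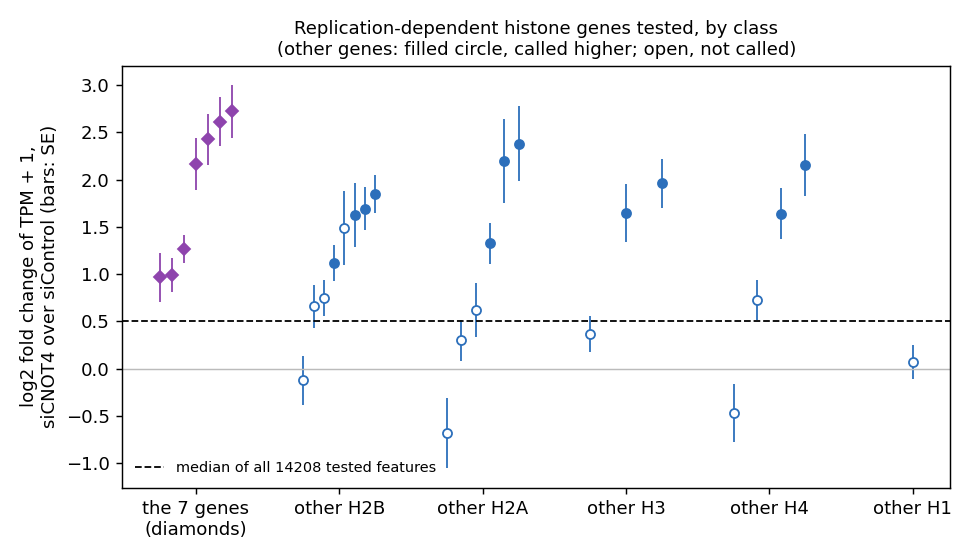
Log2 fold change with SE of the 7 genes (diamonds) and of the 22 other replication-dependent histone genes tested (circles, filled where limma called them higher), by class. The dashed line is the median of all 14208 tested features, 0.50, and 11 circles are filled. Of the filled circles, 4 are genes that reached the minimum for testing in their siCNOT4 mean only.

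Replication-independent histone genes, whose mRNA is polyadenylated throughout the cell cycle, gave another view of the class. Of 12 listed, 11 were tested, 1 rose and 1 fell, with a median log2 fold change of 0.09. Of all features, 11.3% were called higher and 1.30% lower. *H1F0*, the linker histone H1.0 of slowly dividing and differentiated cells, rose from 68.2 and 62.7 TPM to 175 and 195 TPM (1.48, SE 0.16, limma adjusted p 0.0227). *H2AFX*, which is known to make both a stem-loop and a polyadenylated mRNA, fell from 144 and 179 TPM to 66.4 and 73.8 TPM (-1.19, SE 0.18, limma adjusted p 0.0255). Both calls held after TMM scaling, with limma adjusted p values of 0.0381 and 0.0330.

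Factors of histone mRNA 3′ end formation were read from a list of 19 genes, all tested. By limma, 0 rose and 0 fell, while at an unadjusted p under 0.05, 8 were higher and 1 lower; after TMM scaling, 0 were called. *SLBP*, the stem-loop binding protein, was at 136 and 145 TPM in siControl and 108 and 115 TPM in siCNOT4 (log2 fold change -0.32, SE 0.15, limma adjusted p 0.154). The siCNOT4 values lay under the siControl values without overlap. Quantile normalization called 3 genes of the list lower, *SLBP* (limma adjusted p 0.046), *LSM10* and *NELFA*. It called 1169 of all 14208 features lower. The list's median log2 fold change was 0.46, close to the 0.50 of all features, and -0.06 after TMM scaling. Among 16 factors of general cleavage and polyadenylation, 1 rose, while 11.3% of all features were called higher. It was *FIP1L1*, from 58.1 and 47.8 TPM to 95.4 and 88.6 TPM (limma adjusted p 0.0474). After TMM scaling *FIP1L1* was no longer called (limma adjusted p 0.242), and *CPSF4* was called lower (limma adjusted p 0.046), as were 4.51% of all features.

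Genes of DNA synthesis and of cell cycle exit were examined because histone expression follows the cell cycle. Of 26 S phase genes, all tested, 1 rose, the replication licensing factor *CDC6*, from 110 and 89.5 TPM to 201 and 213 TPM (limma adjusted p 0.0268, and 0.0777 after TMM scaling). The list's median log2 fold change was 0.36, or 0.14 below that of all features. Of 13 tested genes of cell cycle exit, 2 rose: *RBL1*, a pocket protein, from 15.7 and 6.09 TPM to 35.4 and 34.6 TPM, and *CDKN2D*, an inhibitor of cyclin-dependent kinases, from 6.18 and 5.25 TPM to 13.5 and 16.8 TPM. Their limma adjusted p values were 0.0492 and 0.0439, and 0.0584 and 0.0540 after TMM scaling, where *TOB1* was called lower (limma adjusted p 0.0456). The median log2 fold change of the cell cycle exit list was 0.22, against 0.50 for all features. Of all features 11.3% were called higher, and after TMM scaling 4.51% were called lower.

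RNAs that lack a poly(A) tail were read as well. Without libraries of unselected RNA, their values do not measure how much of such RNA the selection let through. The summed TPM of 13 listed non-polyadenylated RNAs came to 34.6 and 36.6 in siControl, against 31.0 and 54.5 in siCNOT4, and the groups overlapped. Of the 6 tested, limma called 0, with 1 at an unadjusted p under 0.05 and 0 called after TMM scaling. *RPPH1*, the RNA of ribonuclease P, was at 15.6 and 16.5 TPM in siControl and 11.4 and 18.3 TPM in siCNOT4. The part of residual stem-loop mRNA in the values of the 7 genes was not tested.

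Genes with the profile most like the mean of the 7 were named by the smallest Euclidean distance between centred log2(TPM + 1) profiles over the 4 libraries, among the 11395 features averaging 5 TPM or more. They were *APLP1* (0.0377), *FMO4* (0.0400), *LOXL4* (0.0587), the histone gene *HIST1H3E* (0.0880) and *CCDC103* (0.0979). The 7 genes themselves lay 0.365 (*HIST1H2AC*) to 0.938 (*HIST1H1C*) from their own mean, so that no single one of them followed it as closely. With 4 libraries in 2 groups, likeness mostly restates the difference between the groups.

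Some facts of the libraries bear on all these values. *CNOT4* was at 6.43 and 4.73 TPM in siControl and at 3.38 and 3.81 TPM in siCNOT4 (limma adjusted p 0.184, and 0.0361 after TMM scaling). Of 8 markers of the line, *KRT8*, *KRT18*, *VIM* and *NEFL* were between 193 and 917 TPM in all libraries. *SOX11* was between 16.6 and 25.9 TPM, *LHX1* between 2.02 and 5.04 TPM and *PAX2* between 1.10 and 1.91 TPM. *NEFM* was between 0.412 and 0.916 TPM, under the minimum for testing. *VIM* fell, from 917 and 650 TPM to 369 and 354 TPM (limma adjusted p 0.0288). *SOX11* was not called as deposited but was called lower after TMM scaling (limma adjusted p 0.0346). Of 10 markers of blood, liver, fibroblast and endothelial cells, the summed TPM came to 1.89 and 1.5 in siControl, against 6.44 and 8.08 in siCNOT4, and *COL1A1* made up most of it. *COL1A1*, the only 1 of them tested, rose from 1.39 and 0.906 TPM to 5.09 and 6.60 TPM (limma adjusted p 0.0248, and 0.0287 after TMM scaling). *PTPRC*, *HBA1*, *ALB*, *COL3A1* and *PECAM1*, under the minimum for testing, were also higher in both siCNOT4 libraries than in both siControl libraries. For *APOA1* and *CDH5* the groups overlapped. *HBB* was listed at 0 in all 4 libraries and *CD3E* in all but siCNOT4 replicate 2. The part of these markers in the results was not tested.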

How the data were processed

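RNA of 2 siControl and 2 siCNOT4 libraries of HEK293 cells was compared. The deposited values are TPM, computed by the authors and not pooled. FastQC 0.11.2, STAR 2.5.3a, featureCounts and the build hg19 are named in the submitters' processing notes; the gene annotation is not given in the sources used here. The tables hold no read totals, so no counting interval is given. Labels do not say whether the replicates were separate cultures, so p values measure the spread between these libraries.

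TPM was transformed to log2(TPM + 1). The 14208 features averaging 1 TPM or more were fitted with limma 3.58.1 in R 4.3.3 (trend on mean expression, no covariates), with Benjamini-Hochberg adjustment and a threshold of 0.05. With this pseudocount, fold changes of low genes are understated. The fit was tested on simulated data. TMM factors were computed from the TPM columns by the published trimmed-mean formula, as a scaling only. With 2 libraries against 2, an exact two-sided permutation test cannot go below 0.333, so none is reported. Genes named from each list were the called ones with the largest changes (at most 8 of the other histone genes, at most 4 with a mean TPM of at least 5 elsewhere), *SLBP*, *CNOT4*, promoter partners and the 5 most similar profiles; other names illustrate counts and were chosen after their values were seen. The 7 genes and all lists were chosen with earlier results of these data known.

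Transcripts came from GENCODE 29 (GRCh38) and promoters from RefSeq (GRCh38.p14), matched through gene IDs for all 7 genes. No coordinates were taken from the authors' build. GC3 used the longest complete coding sequence, for 12262 features matched by symbol.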

Additional observations from a re-analysis of the deposited data

How the results depend on the processing

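The log2 fold change of each of the 7 genes was above 0, and above the median of all features, in all 12 alternatives. It ranged from 2.10 to 3.20 in *HIST1H2BC* and from 0.32 to 1.15 in *HIST2H2BE*. The median of the 7 genes, 2.17, was 2.41 with a pseudocount of 0.1, 1.71 after TMM scaling, 1.56 after quantile normalization and 1.61 with libraries centred on their medians, and 2.06 to 2.28 when each replicate was left out. The count of called features, 1792, was 558 with a pseudocount of 0.1, 908 without a filter, 147 at a mean TPM of at least 5, 543 after centring, 756 without the trend and 450 to 11311 when each replicate was left out. Of the called features 89.7% were higher as deposited, 51.8% after TMM scaling (690 higher, 641 lower), 46.4% after quantile normalization (1010 and 1169) and 44.9% after centring (244 and 299). Of the other replication-dependent histone genes, 11 were called as deposited, 7 with a pseudocount of 0.1, 4 without a filter, 2 at a mean TPM of at least 5 (of 7 tested), 3 after centring and 8 to 18 when each replicate was left out; without siControl replicate 1, 1 of the 18 was lower. The share of the 5 H2B genes in summed H2B TPM differed by -1.06 percentage points between the groups, by 4.04 with all replication-dependent histone TPM as the denominator, by 0.76 without siControl replicate 2, and by -2.87 to 0.76 when each replicate was left out. The causes of these shifts were not tested, except that stricter minimums leave fewer genes.

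The labels give replicates a number and do not say whether same-numbered libraries were handled together. The deviations of same-numbered libraries from their group means had a correlation of 0.171 across 14208 features. With 2 libraries per group this value cannot decide whether they were paired. With the replicate number as a replicate block, 3655 features and 14 other histone genes were called. For named genes of the other lists, 137 of 199 values under alternatives kept their direction and side of the threshold, 54 were no longer past it and 8 newly were. Leaving out a replicate leaves 1 library in a group, which is assumed to vary like the others. The 2 libraries per group set the precision, and read depth is not in the tables.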

Other observations

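Histone genes at the edge of detection were also listed more often in siCNOT4. Of the 52 other replication-dependent histone genes in the tables, 16 and 17 were listed at 0 in siControl, against 8 and 11 in siCNOT4. The H3 genes *HIST1H3A* and *HIST1H3J* were listed at 0 in both siControl libraries, and at 0.173 and 0.525 TPM and at 0.170 and 0.515 TPM in siCNOT4. Over all features, 17661 and 17531 were above 0 in siControl and 18667 and 18629 in siCNOT4. Whether the histone genes follow more than this general difference was not tested. *HIST1H2BN*, an H2B gene outside the group of 7 with spliced GENCODE transcripts, was at 10.3 and 4.54 TPM in siControl and 19.5 and 23.0 TPM in siCNOT4 (limma adjusted p 0.0561).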
